A study of Saccharomyces cerevisiae with 6 samples.

Results

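The genes described here encode the subunits of the Swi-Snf chromatin remodeling complex of budding yeast (Saccharomyces cerevisiae), those of its close relative RSC, and the ATPases and partners of the other remodelers. They were taken by systematic identifier and with no cut on their levels, although earlier results of these data were known. They make up 32 of the 7127 features in the count table: 12 Swi-Snf genes, 10 RSC genes and 10 genes of other remodelers. ARP7, ARP9 and RTT102 belong to both Swi-Snf and RSC and were counted once, with Swi-Snf. All 32 genes had enough counts to be tested. SNF2, the gene that was deleted, was left out of every count and sum that compared the genotypes, so that 31 genes were compared. It was kept in the motif search, which covered all 32 genes.

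The study asked how transcription changes in rich medium when Swi-Snf is lost, with sulfur metabolism as its main concern. Poly(A) RNA was sequenced from 3 wild type and 3 snf2Δ libraries. Both genotypes were in HHY221, a W303 MATa strain for anchor-away experiments that carries TOR1-1, a deletion of FPR1 and a ribosomal protein gene, RPL13A, fused to FKBP12. The snf2Δ strain carried snf2Δ::natMX6 according to the study's strain list. Cells were in log phase in YPD at 30 °C, and no rapamycin was given. The wild type is thus itself an engineered strain, and both genotypes lack FPR1. The labels do not say whether the libraries of a genotype came from separate cultures, so that the p-values below measure the spread between these libraries only.

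Chromatin remodelers are machines built around an ATPase of the Snf2 family, which pulls DNA over the surface of the histone octamer. Swi-Snf and RSC slide and evict nucleosomes, and they are known for keeping promoters open. RSC is far more abundant than Swi-Snf and is essential for growth, whereas cells without Snf2 live. The ISWI and Chd1 remodelers space nucleosomes evenly over genes, INO80 slides nucleosomes next to promoters, and SWR1 exchanges histone H2A for the variant H2A.Z.

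Library totals were 4134546 to 6708036 counts. Values are CPM, counts scaled to a common library size by TMM, and a count of 0 allows a level of 0.481 to 0.746 CPM, which covers counting error only. The first principal component (76.8% of the variance) separated the genotypes, and the second (10.1%) set wild type replicate 3 apart from the other libraries. Of 5641 features tested besides SNF2, 16.6% rose and 17.8% fell in snf2Δ at an adjusted p under 0.05 (edgeR quasi-likelihood test, Benjamini-Hochberg), and 2.82% did so by more than 2 on the log2 scale in either direction. The median log2 fold change of all features was -0.02. The MATa gene STE2, the receptor for α-factor, averaged 676 ± 192 CPM over the wild type libraries (SD, n = 3) and 785 ± 91.8 CPM over those of snf2Δ, and STE3, its MATα counterpart, 1.95 ± 1.14 and 2.56 ± 0.165 CPM. MF(ALPHA)1 and MF(ALPHA)2 stayed under 1 CPM in every library. Of the other markers of mating type and meiosis, MFA1, MFA2 and IME2 fell, SPO11 rose, and BAR1 and STE6 did not pass. FPR1 had 0 counts in all 6 libraries.

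SNF2 (YOR290C, sacCer3 chromosome XV, 855147 to 860258, minus strand), the ATPase of Swi-Snf, was examined first because it checks the labels. It had 74.99, 60.8 and 58.5 CPM in wild type replicates 1, 2 and 3, and 1.38, 1.97 and 1.74 CPM in snf2Δ replicates 1, 2 and 3. The level was 97.3% lower in snf2Δ, and every library matched its label. The 6, 9 and 7 reads left in the snf2Δ libraries were above the floor of 3 counts, and none of the 5038 windows of 75 bases in SNF2 occurs elsewhere in the reference genome.

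All 8 ATPases share a catalytic motif of the DEAD/H type, with which they hydrolyse ATP. The coding DNA around it is shown for SNF2 and for 5 relatives because it lets the reader see how far the deleted gene and its relatives can be told apart by sequence. The capitals mark the 4 codons of the motif, and each sequence was read 5′ to 3′ along the coding strand of the R64 reference, on which sacCer3 is based.
SNF2 (chrXV:857556-857591, minus strand): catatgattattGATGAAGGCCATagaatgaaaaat
STH1 (chrIX:119768-119803, plus strand): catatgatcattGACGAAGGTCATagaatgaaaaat
ISW1 (chrII:710547-710582, minus strand): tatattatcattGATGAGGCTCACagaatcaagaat
ISW2 (chrXV:885435-885470, plus strand): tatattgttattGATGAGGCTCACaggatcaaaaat
SWR1 (chrIV:1138389-1138424, plus strand): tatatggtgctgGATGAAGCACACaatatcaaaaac
FUN30 (chrI:117013-117048, plus strand): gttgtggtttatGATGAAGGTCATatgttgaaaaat
Of these 36 bases STH1 shared 33 with SNF2, ISW1 and ISW2 27 each, FUN30 26 and SWR1 24. CHD1 shared 25 and INO80, the least alike, 23. No window of 75 bases in any of the 8 genes has an exact match elsewhere in the reference.

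In snf2Δ, none of the 31 genes rose, and 11 fell at an adjusted p under 0.05, which is 35.5% beside 17.8% of all features. None of the 31 rose at an unadjusted p under 0.05 either, nor with DESeq2 or limma-voom. This holds for the 31 genes only. Of 53 further genes tested, described below, 4 rose (7.55%, beside 16.6% of all features), among them IES5 and IES6 of INO80. The 11 that fell were SWI1, SNF11 and ARP9 of Swi-Snf, STH1, RSC1, RSC2, RSC3, RSC4 and RSC8 of RSC, and SWR1 and ITC1 of the other remodelers. The falls were modest: none was past a log2 fold change of 2 in size, and the deepest, SWI1, was 56.1% below wild type. The median of the 31 log2 fold changes was -0.37, and 29 of the 31 were below 0. The levels of the genotypes did not overlap for 17 of the 31 genes (54.8%), beside 46.6% of all features. The count of falls was 7 without wild type replicate 1 or snf2Δ replicate 1, 6 without snf2Δ replicate 2 and 20 without wild type replicate 3. The share of all features that fell moved the same way, to 13.5%, 14.4%, 12.9% and 23.1% in these 4 fits. These values come from bulk cultures, in which fewer transcripts per cell and fewer cells with the transcript cannot be told apart.

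**Figure D1:**
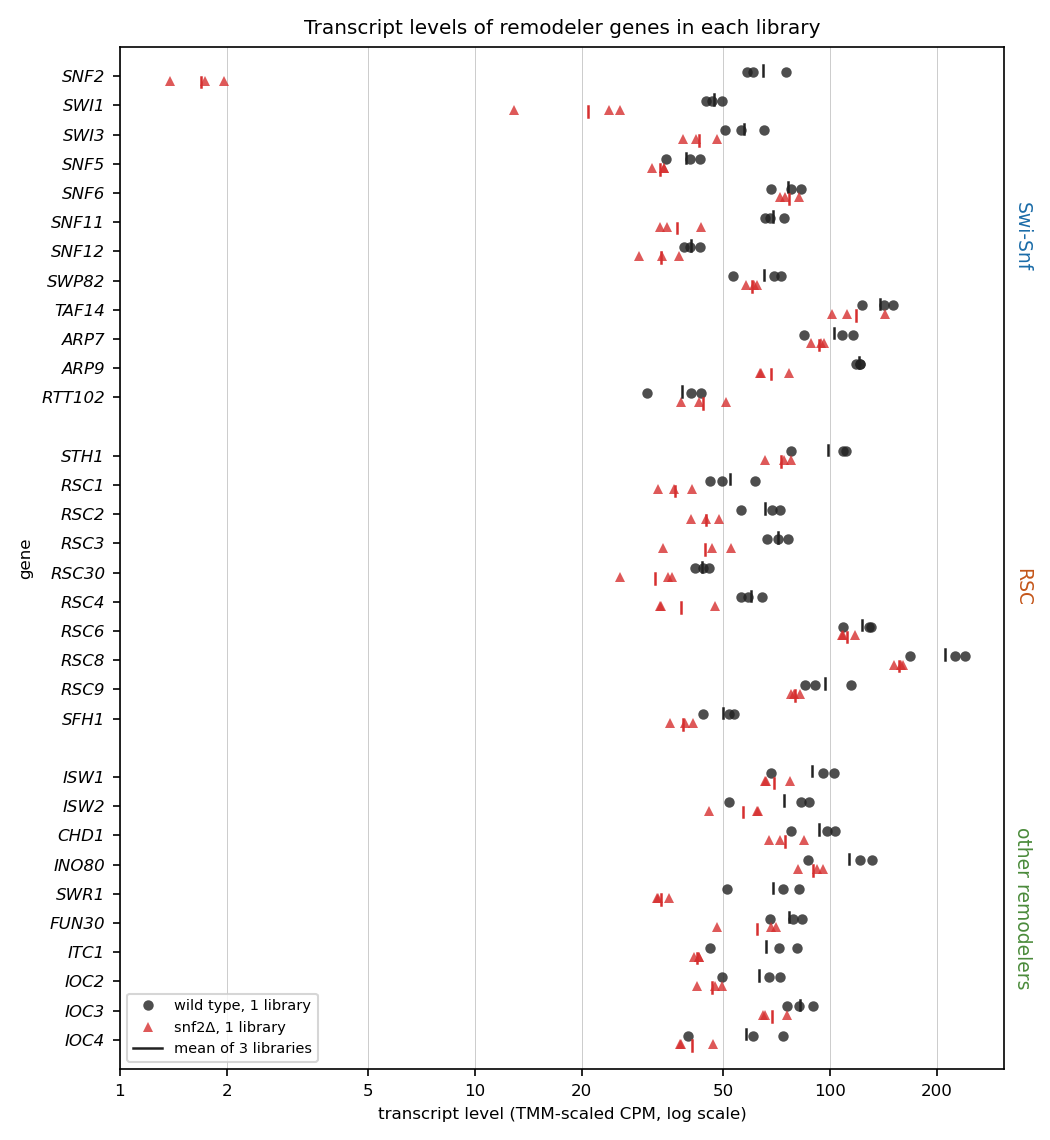
Transcript level of each of the 32 genes in each library, in TMM-scaled CPM on a log axis, with 3 wild type libraries (circles) and 3 snf2Δ libraries (triangles) per gene and a bar at each mean. SNF2 lies under 2 CPM in every snf2Δ library, SWI1, SNF11, ARP9 and SWR1 show clear gaps between the genotypes, and most other genes lie close together.

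Within Swi-Snf, 3 of the 11 genes besides SNF2 fell (27.3%, beside 17.8% of all features), and the other 8 did not pass the test. SWI1 (YPL016W, chromosome XVI, 521014 to 524958), a large DNA-binding subunit through which activators contact the complex, had 46.7, 44.7 and 49.7 CPM in wild type and 25.6, 12.9 and 23.9 CPM in snf2Δ. The wild type libraries were close to one another and all above the snf2Δ libraries, of which replicate 2 was the lowest. The log2 fold change was -1.19 ± 0.21 (SE, 95% interval -1.63 to -0.75, adjusted p = 0.000396). SNF11 (YDR073W, chromosome IV, 592439 to 592948), a small subunit that binds Snf2 itself, had 68.0, 74.3 and 65.7 CPM in wild type and 43.3, 34.8 and 33.3 CPM in snf2Δ. Again no library of one genotype reached the range of the other, and the log2 fold change was -0.90 ± 0.15 (adjusted p = 0.000329).

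The third gene to fall was ARP9 (YMR033W, chromosome XIII, 337788 to 339277). It encodes an actin-related protein that pairs with Arp7 on the Snf2 or Sth1 subunit and so serves both complexes. Its level was 122, 119 and 122 CPM in wild type and 76.9, 63.7 and 64.1 CPM in snf2Δ, with a log2 fold change of -0.82 ± 0.14 (adjusted p = 0.000248). The 3 wild type values lay within a few CPM of one another, and the snf2Δ values lay far below them. ARP7 (YPR034W), its partner, had 108, 116 and 84.3 CPM in wild type and 96.5, 88.7 and 94.2 CPM in snf2Δ. The ARP7 ranges overlapped, and its log2 fold change was -0.14 (95% interval -0.45 to 0.17). RTT102, a small protein that binds the Arp7-Arp9 pair, had the highest log2 fold change of the 31 genes, 0.21 (95% interval -0.16 to 0.58), and did not pass.

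The ratio of ARP9 to ARP7 was formed after the values were seen. It was 1.12, 1.02 and 1.44 in wild type and 0.797, 0.719 and 0.681 in snf2Δ. Every snf2Δ library was below every wild type library, by 0.70 on the log2 scale between the means. An exact two-sided permutation test gave p = 0.1, the smallest that 3 against 3 libraries allow. Because the pair was chosen after its values were seen, that p cannot count as evidence of a difference.

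The remaining Swi-Snf genes stood nearer to their wild type level. SWI3, a scaffold subunit, had a log2 fold change of -0.42 (95% interval -0.75 to -0.08) and an adjusted p of 0.0514, with levels of 50.5 to 65.1 CPM in wild type and 38.5 to 48.0 CPM in snf2Δ that did not overlap. SNF5, a core subunit that contacts the nucleosome and activators, stood at 34.6 to 43.2 and 31.5 to 34.1 CPM and SNF12 at 38.8 to 43.0 and 29.1 to 37.5 CPM. Neither pair of ranges overlapped, although both changes were small (log2 fold changes of -0.24 and -0.28). TAF14, a histone-binding protein that Swi-Snf shares with TFIID, TFIIF and INO80, and SWP82, an accessory subunit, had overlapping ranges and log2 fold changes of -0.22 and -0.10. SNF6, a further core subunit, had 77.5, 83.1 and 68.1 CPM in wild type and 74.8, 82.1 and 72.6 CPM in snf2Δ, and its interval of -0.29 to 0.31 leaves room for a change of about that size in either direction.

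Summed over the 11 genes, Swi-Snf transcripts made up 834, 832 and 721 CPM in wild type and 686, 602 and 596 CPM in snf2Δ, a ratio of 0.790. The sums did not overlap. Per kilobase of coding length, the wild type levels of the subunits covered a wide range, from 11.9 ± 0.639 CPM per kb for SWI1 and 12.7 ± 1.74 for SNF2 (SD, n = 3), which did not differ beyond their spread, to 136 ± 8.70 for SNF11 and 189 ± 18.6 for TAF14. In snf2Δ the level of SWI1 was 5.27 CPM per kb, the lowest of the 31 genes in these libraries.

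Of the 10 genes counted as RSC, 6 fell (60%, beside 17.8% of all features). The levels of the genotypes did not overlap for 8 of the 10 (80%, beside 46.6%). The median log2 fold change was -0.44, with all 10 values below 0. Further RSC subunits were counted in other lists. Of ARP7, ARP9 and RTT102, shared with Swi-Snf, 1 fell, and of 4 other subunits 1 fell. RTT102 (0.21), LDB7 (0.0058) and HTL1 (0.051) had log2 fold changes above 0. The number of the 10 that fell was 3 without wild type replicate 1, wild type replicate 2 or snf2Δ replicate 1. In these fits 13.5%, 14.4% and 14.4% of all features fell. The number was 2 without snf2Δ replicate 2, where 12.9% of all features fell. The deepest falls among the 10 were those of RSC3 and RSC4. RSC3 (YDR303C, chromosome IV, 1068729 to 1071386), a zinc cluster protein that binds DNA at promoters, had 66.5, 71.6 and 76.3 CPM in wild type and 52.7, 33.9 and 46.5 CPM in snf2Δ. The genotypes were apart in every library, and the log2 fold change was -0.69 ± 0.17 (95% interval -1.05 to -0.34, adjusted p = 0.00464). RSC4 (YKR008W, chromosome XI, 452201 to 454078), which reads acetylated histone H3 through its bromodomains, had 58.7, 64.5 and 56.1 CPM in wild type and 47.4, 33.5 and 33.3 CPM in snf2Δ (log2 fold change -0.65 ± 0.17, adjusted p = 0.00715). Replicate 1 was the highest of the 3 snf2Δ libraries for both genes, and no library overlapped the other genotype.

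RSC1 and RSC2 encode paralogous bromodomain subunits that define alternative forms of RSC, and both fell. RSC1 had 49.6, 61.6 and 45.9 CPM in wild type and 36.4, 32.8 and 40.8 CPM in snf2Δ (log2 fold change -0.51 ± 0.16, adjusted p = 0.0251). RSC2 had 72.5, 68.6 and 56.1 CPM and 44.7, 40.7 and 48.7 CPM, respectively (-0.55 ± 0.15, adjusted p = 0.0115). Their ranges did not overlap between genotypes. YLR358C, an open reading frame on the opposite strand, covers 514 bases (19.25%) of RSC2, but it held at most 3 counts in any library.

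STH1 (YIL126W, chromosome IX, 117992 to 122071), the ATPase of RSC and the closest relative of SNF2, had 109, 111 and 77.8 CPM in wild type and 74.4, 65.7 and 77.8 CPM in snf2Δ. Wild type replicate 3 lay as low as the snf2Δ libraries, the ranges overlapped, and the fall of 0.45 on the log2 scale (95% interval -0.78 to -0.11) passed narrowly, with an adjusted p of 0.0408. In wild type the ratio of SNF2 to STH1 was 0.690, 0.549 and 0.753. In snf2Δ it was 0.0186, 0.0300 and 0.0224, which follows from the deletion. RSC8, a scaffold homologous to Swi3, had 225, 239.6 and 168 CPM in wild type and 161, 151 and 159 CPM in snf2Δ (log2 fold change -0.43 ± 0.15, adjusted p = 0.0356). Here too, wild type replicate 3 was the lowest of its group.

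The calls for STH1, RSC1 and RSC8 depended on the processing. STH1 passed in 8 of 18 alternatives, and RSC1 and RSC8 in 11 each, whereas RSC2 passed in 16 and RSC3 and RSC4 in 18. RSC30, the paralog of RSC3, had a log2 fold change of -0.44 with an adjusted p of 0.0509, from 41.7 to 45.7 CPM in wild type to 25.6 to 35.9 CPM in snf2Δ. Of its 75-base windows, 38.6% occur elsewhere in the reference, in a copy next to the CUP1 genes that includes YHR054C, so that its counts are uncertain. YHR054C itself held 8, 15 and 14 counts in wild type and 4, 2 and 3 in snf2Δ, and CUP1-1 and CUP1-2 were listed at 0 in all libraries (these neighbours were looked up after the values of RSC30 were seen). SFH1, the homolog of Snf5 (log2 fold change -0.37, adjusted p = 0.0773), and RSC9 (-0.28) did not overlap between genotypes but did not pass, and RSC6, the homolog of Snf12, was at -0.14 with overlapping ranges.

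**Figure D2:**
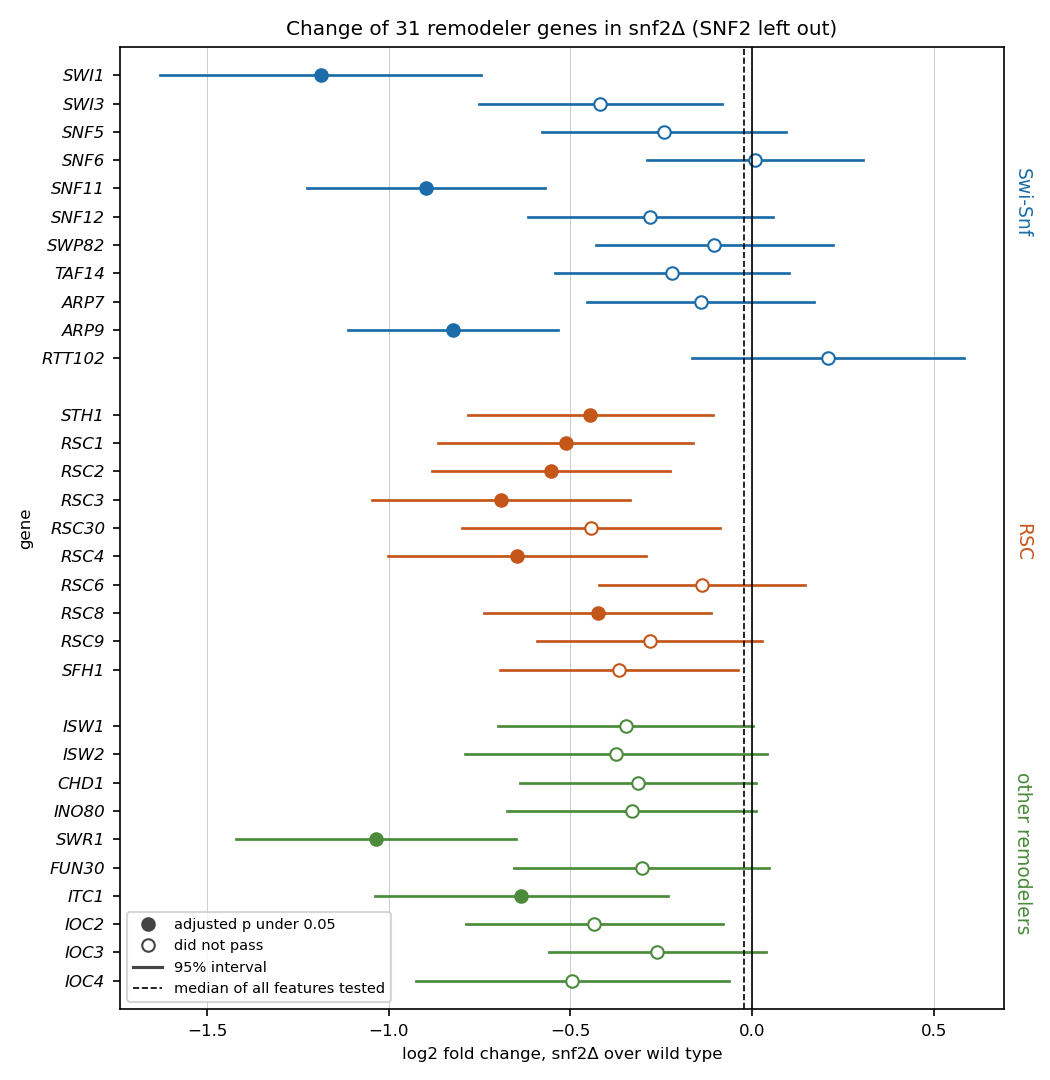
Log2 fold change of snf2Δ over wild type for the 31 genes other than SNF2, with 95% intervals; filled circles had an adjusted p under 0.05 (edgeR), the solid line is 0 and the dashed line is the median of all features tested (-0.02). All 10 genes counted as RSC and all 10 other remodelers lie left of 0. SNF6 and RTT102 (shared with RSC but counted with Swi-Snf) lie to its right.

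Pairs of related subunits, one in Swi-Snf and one in RSC, were compared within each library, which removes any effect of library scaling. SNF5 over SFH1 was 0.804, 0.776 and 0.791 in wild type and 0.827, 0.889 and 0.873 in snf2Δ. The snf2Δ ratios were all higher, by 0.13 on the log2 scale. SWI3 over RSC8 had a mean log2 ratio of -1.87 ± 0.19 in wild type and -1.88 ± 0.13 in snf2Δ (SD, n = 3), a difference of -0.01. SNF12 over RSC6 was at -1.59 ± 0.091 and -1.74 ± 0.25, with overlapping values. Among the paralogs inside a family, RSC1 over RSC2 and ISW1 over ISW2 differed by 0.04 and 0.02 between genotypes, and their ranges overlapped. RSC3 over RSC30 was 1.52, 1.57 and 1.83 in wild type and 1.47, 1.32 and 1.33 in snf2Δ, which did not overlap, with a difference of -0.25 that rests in part on the uncertain counts of RSC30. Over the 6 pairs tested, the smallest exact permutation p was 0.1 (two-sided), for SNF5 over SFH1 and RSC3 over RSC30, and 0.3 after Benjamini-Hochberg adjustment, so that no pair could have passed with 3 libraries a genotype.

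**Figure D3:**
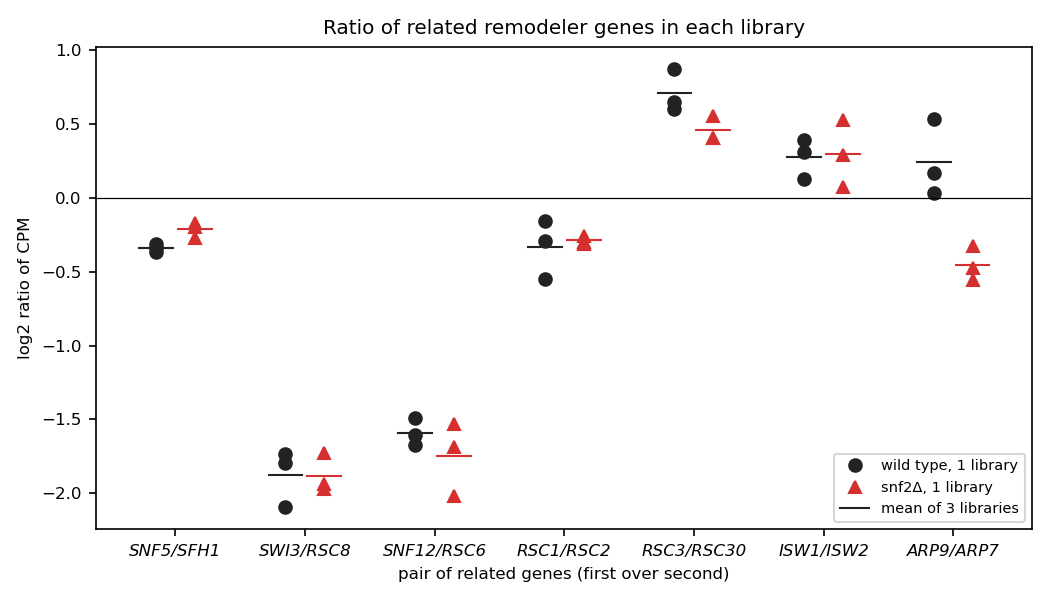
Log2 ratio of the CPM of related genes in each library, with wild type as circles, snf2Δ as triangles and a bar at the mean of 3 libraries. The genotypes overlap for SWI3/RSC8, SNF12/RSC6, RSC1/RSC2 and ISW1/ISW2 and are apart for SNF5/SFH1 and RSC3/RSC30. They are apart by the widest gap for ARP9/ARP7, a pair chosen after its values were seen.

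Of the 10 genes of other remodelers, SWR1 and ITC1 fell, a share of 20% that is near the 17.8% of all features, and SWR1 alone did so when wild type replicate 1 or any 1 of the snf2Δ libraries was left out. Without wild type replicate 3, 8 of the 10 fell, beside 23.1% of all features in that fit. SWR1 (YDR334W, chromosome IV, 1135932 to 1140476), the ATPase that installs H2A.Z beside promoters, had 74.0, 82.1 and 51.3 CPM in wild type and 35.2, 32.8 and 32.6 CPM in snf2Δ. The snf2Δ libraries were nearly equal and all below wild type, including its low replicate 3. The log2 fold change was -1.03 ± 0.18 (95% interval -1.42 to -0.65, adjusted p = 0.000401), a level 51.2% lower. ITC1 (YGL133W, chromosome VII, 257707 to 261501), the partner of Isw2 that is homologous to human ACF1, had 80.6, 72.1 and 46.0 CPM in wild type and 42.8, 42.7 and 41.5 CPM in snf2Δ (log2 fold change -0.64 ± 0.19, adjusted p = 0.0170). Its ranges did not overlap either, although replicate 3 of wild type stood only a little above snf2Δ, and ITC1 passed in 13 of 18 alternatives.

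Among the ATPases, STH1 and SWR1 were thus the ones of 7 that fell (28.6%, beside 17.8% of all features). All 7 have over 1500 bases of coding length, and of features of that length 25.3% fell. STH1 passed in 8 of 18 alternatives. ISW1 and ISW2, the ATPases of the ISWI class, had log2 fold changes of -0.35 (95% interval -0.70 to 0.00) and -0.37 (-0.79 to 0.04). CHD1, which works as a single protein, was at -0.31 (-0.64 to 0.01), INO80 at -0.33 (-0.67 to 0.01) and FUN30, which acts in silencing and in the resection of broken DNA, at -0.30 (-0.65 to 0.05). Each of these 5 had overlapping ranges, and none passed. The partners of Isw1 also did not pass: IOC3, of the form Isw1a, was at -0.26, and IOC2 and IOC4, of the form Isw1b, at -0.43 and -0.49. INO80 shares 2 bases with YGL149W on the opposite strand, which had 0 counts.

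Wild type replicate 3 moved with these results. It was the lowest of the 3 wild type libraries for 27 of the 31 genes (87.1%), beside 40.3% of all features, and for each of the 10 other remodelers. Its median difference from the other 2 wild type libraries was -0.27 on the log2 scale over the 31 genes and -0.54 over the 10 other remodelers, beside 0.02 over all features. The sum of the 10 was 853, 887 and 616 CPM in wild type and 584, 548 and 624 CPM in snf2Δ, so that the genotypes overlapped through that library alone, with a ratio of the means of 0.746. The RSC sum was 901, 928 and 789 CPM in wild type and 681, 606 and 680 CPM in snf2Δ, a ratio of 0.751, with no overlap. Without wild type replicate 3, 20 of the 31 genes fell (beside 23.1% of all features), 8 of them among the 10 other remodelers, and none rose. Its part in the levels was not tested.

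Most of these genes are long, and longer genes were lower in snf2Δ in general. Over 5502 features with an annotated length, log2 fold change and coding length had a Spearman correlation of -0.23, a description across genes that share the same 6 libraries. Of features over 1500 bases of coding length 25.3% fell, with a median of -0.15, and of the 22 remodeler genes of that length 9 fell (40.9%), with a median of -0.42. Of shorter features 13.2% fell, with a median of 0.06, and of the 9 shorter remodeler genes 2 fell, SNF11 and ARP9, with a median of -0.22. When GC content and length were taken into the fit, 8 of the 31 fell, beside 18.4% of all features, and the median of the 31 was -0.28. SWI1, SNF11, ARP9, RSC2, RSC3, RSC4, RSC8 and SWR1 kept their call in that fit.

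**Figure D4:**
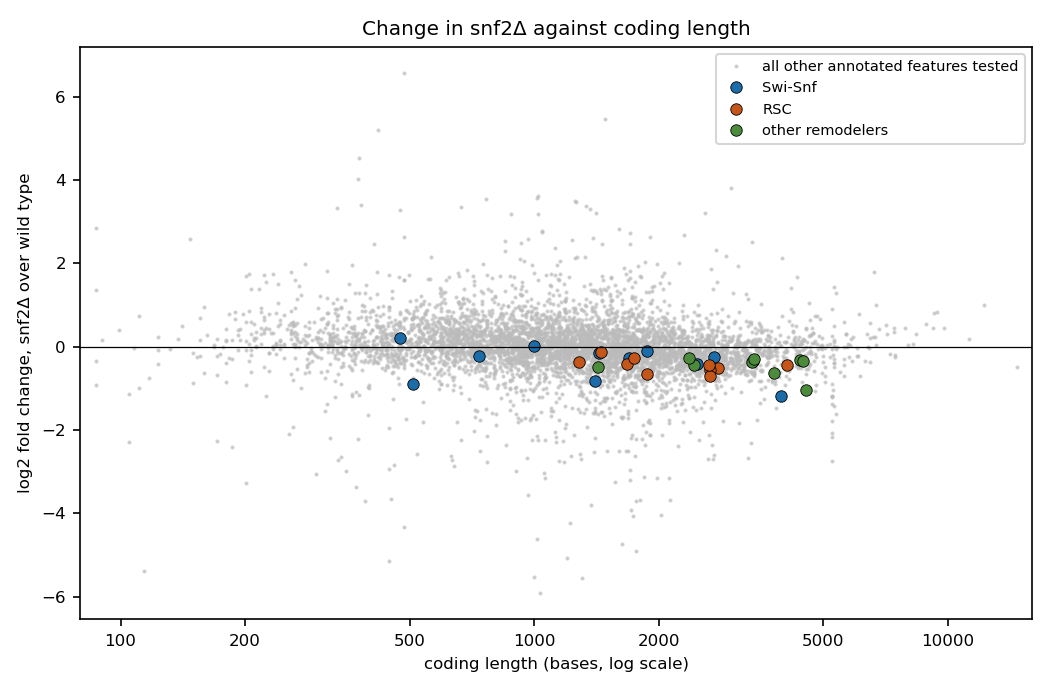
Log2 fold change of snf2Δ over wild type against coding length in bases on a log axis, for all annotated features tested (grey) and the 31 remodeler genes (coloured by complex). The remodeler genes lie mainly at over 1500 bases and below 0, and SNF11 and ARP9 are the shorter ones that fell.

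Of the 11 genes that fell, SWI1, SNF11, ARP9, RSC3, RSC4 and SWR1 fell in each of the 18 alternatives, which covered other scalings, filters, tests, a replicate block, a fit with GC content and length, and the loss of each library. Another 5 (STH1, RSC1, RSC2, RSC8 and ITC1) lost the call in at least 1 of them. Among the 20 that did not pass, 10 passed in some alternative. SWI3, RSC30, SFH1, ISW1, ISW2, CHD1, INO80, IOC2 and IOC4 did so when wild type replicate 3 was left out, and TAF14 with the replicate block and the correction together. SNF5, SNF6, SNF12, SWP82, ARP7, RTT102, RSC6, RSC9, FUN30 and IOC3 passed in none.

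**Figure D5:**
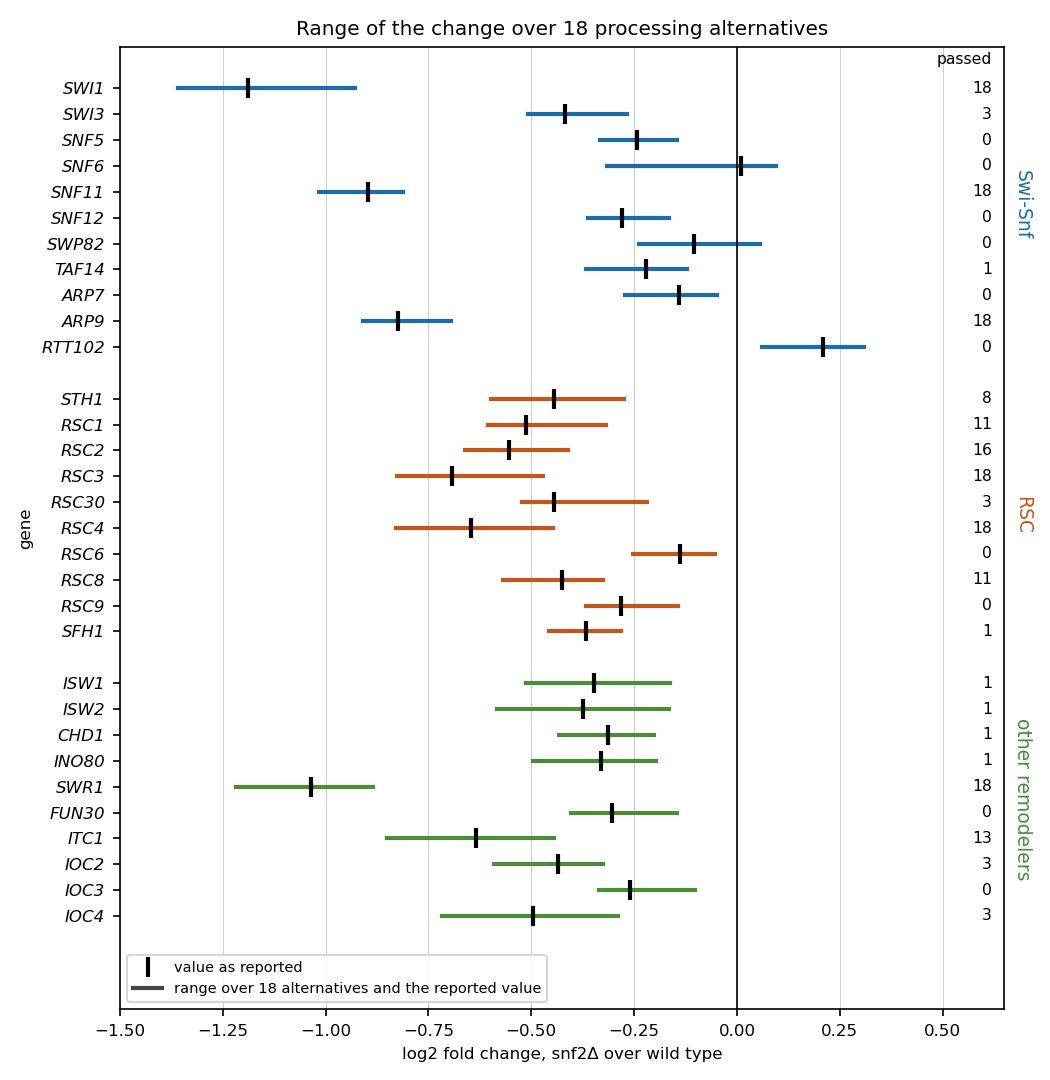
Range of the log2 fold change of each of the 31 genes over 18 processing alternatives (bars) with the value as reported (black ticks) and, at the right, the number of alternatives in which the gene passed at an adjusted p under 0.05. The bars of SNF6 and SWP82 cross 0, and SWI1, SNF11, ARP9, RSC3, RSC4 and SWR1 passed in 18 of 18.

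Further genes of the same complexes and their relatives were counted from a list of 54, of which 53 could be tested. Of these 4 rose (7.55%, beside 16.6% of all features) and 8 fell (15.1%, beside 17.8%), so that they passed no more often than features in general, and their median log2 fold change was -0.14. In place of 12 genes, 4 passed without wild type replicate 1, where 12.4% of all features rose and 13.5% fell. Without wild type replicate 2 the number was 7 (12.8% and 14.4% of all features), and without snf2Δ replicate 2 it was 5 (12.1% and 12.9%). Without wild type replicate 3 it was 23, where more of all features passed as well (20.8% rose and 23.1% fell). Of 13 partners of Ino80, 3 rose (23.1%, beside 16.6% of all features) and 2 fell (15.4%, beside 17.8%). IES5 and IES6 rose most. IES5 had 48.3, 41.0 and 51.2 CPM in wild type and 117, 120.4 and 106 CPM in snf2Δ (log2 fold change 1.29 ± 0.14, adjusted p = 4.52e-06). IES6, which joins Arp5 in a module of the complex, had 46.3, 46.3 and 48.1 CPM and 98.6, 109.9 and 94.97 CPM (1.11 ± 0.14, adjusted p = 1.40e-05). For both genes each snf2Δ library lay far above all wild type libraries. ACT1, the actin gene, rose as well (0.64 ± 0.18), whereas IES1 fell by 0.60 and ARP5, chosen after its values were seen, fell by 0.46.

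In the other lists, BDF1, a bromodomain protein that works with Swr1, was the one of 8 Swr1 partners tested that fell, with 132 ± 21.0 CPM before and 72.2 ± 13.1 CPM after loss of Snf2 (SD, n = 3), a change of -0.87 ± 0.17 on the log2 scale. RSC58 was the one of 4 further RSC subunits that fell (-0.52 ± 0.19, adjusted p = 0.0467), and neither of the 2 further partners of Isw2 passed. Of 9 other ATPases of the Snf2 family, RAD16, which acts in nucleotide excision repair, fell from 75.2, 78.6 and 59.97 CPM to 29.5, 30.0 and 30.8 CPM (-1.24 ± 0.16, adjusted p = 1.96e-05), and IRC5 rose by 0.45 ± 0.15. Of 17 histone chaperone genes, SPT6, the elongation factor, ASF1, which carries H3 and H4, and HIR2, a corepressor of histone genes, fell (-0.51, -0.71 and -0.58), a share of 17.6% that is near the 17.8% of all features. The single falls among Swr1 partners (12.5%) and further RSC subunits (25.0%) are too few to be read against that share. The same holds for the single rise and the single fall among the 9 other ATPases (11.1% each, beside 16.6% and 17.8% of all features).

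The 300 bases before each start codon were searched on both strands for 7 short motifs, and the share of genes with a match was set beside that of all 6007 genes searched. CGCGC, the core bound by Rsc3, was found for 5 of the 32 genes (15.6%), beside 12% of all. TTACCCG, bound by Reb1, was found for 3 (9.38%), beside 7.89%, and TATAAA for 13 (40.6%), beside 48.2%. AGGGG was found for 5 (15.6%, beside 22.2%), CACGTG for 1 (3.12%, beside 3.56%), and ACGCGT and TGACTCA for none (beside 3.48% and 2.61%). The CGCGC matches of ARP9 and ARP7 are shown because ARP9 fell and ARP7, its partner, did not pass. These calls are no test of a difference between the partners. The Reb1 match of SNF11 is shown because that gene fell in every alternative. The capitals mark the match, in either direction.
ARP9 (chrXIII:337651-337677, plus strand, Rsc3 core, 126 bases before the start codon): ctacatatttcCGCGCagtggctaaaa
ARP7 (chrXVI:639477-639503, plus strand, Rsc3 core, 37 bases before the start codon): tattagcaaaaGCGCGagaattactac
SNF11 (chrIV:592207-592235, plus strand, Reb1, 221 bases before the start codon): gattgttttgcCGGGTAAcaatcgacttt
The genes with a CGCGC match were SWI3, ARP7, ARP9, STH1 and RSC2. Of these ARP9, STH1 and RSC2 fell, and STH1 passed in 8 of 18 alternatives. Falls among all genes with a match were not counted, so that these falls have no share to be read against. A link between a match and a change in level was not tested. A match is a string of letters and no evidence of binding in these cells.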

How the data were processed

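RNA-seq libraries of 3 wild type and 3 snf2Δ samples were grouped by the labels. The deposited table holds whole, unscaled counts per feature in 1 column per library. Per the submitters' processing notes, bcl2fastq 2.18, STAR 2.7.3a and RSEM 1.3.0 were used with the sacCer3 genome, and the study's supplementary methods name an Ensembl annotation. The counting rule and its use of strand were not given in the sources used here, and antisense and multiply mapping reads may not be separated. The labels describe hot phenol extraction and the study's methods a column kit, so the extraction is not settled.

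In R 4.3.3, counts were filtered with filterByExpr, scaled by TMM and tested with the quasi-likelihood F test of edgeR 4.0.16, with genotype as the only term and Benjamini-Hochberg adjustment over all features tested (threshold 0.05). The same fit was tested on simulated data. Alternatives used limma 3.58.1 and DESeq2 1.42.0, other scalings and filters, and the loss of each library. Of 7127 features, 6047 matched the RefSeq annotation of R64, from which positions, coding lengths and sequences were read. Floors were set at 3 counts. No column was left without a sample. No protein or promoter sequence tables were used here.

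The genes named were all 32 remodeler genes, up to 4 passing genes by smallest adjusted p in each further list (other subunits of RSC, ISW2, INO80 and SWR1, other Snf2-family ATPases and histone chaperones), markers of mating type and meiosis, and features overlapping a remodeler gene. These genes, lists and tests were chosen with earlier results of these data known.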

Additional observations from a re-analysis of the deposited data

How the results depend on the processing

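Over the 18 alternatives, 0 of the 31 genes rose and 6 to 20 fell, beside 11 as reported. Leaving out libraries in turn gave 6 (without snf2Δ replicate 2) to 20 (without wild type replicate 3) of the 31, and 2 to 8 in RSC. Among the 10 other remodelers it gave 1 (without wild type replicate 1) to 8 (without wild type replicate 3). Of the 53 further genes 4 to 23 passed. In these fits 12.9% (without snf2Δ replicate 2) to 23.1% (without wild type replicate 3) of all features fell, and 12.1% to 20.8% rose. Total count and upper quartile scaling left 3 RSC genes each, beside 6, and 16.1% and 14.3% of all features fell in these fits. Among other remodelers, the likelihood ratio test called 4 and the correction for GC content and length 1, beside 2. The shares of all features that fell were 19.4% with that test and 18.4% with that correction. SNF6 changed sign under total counts (-0.0023), that correction (-0.32) and, with the replicate block added, -0.31. It ranged from -0.070 to 0.072 when libraries were left out. SWP82 turned to 0.054 and 0.056 in the same 2 fits. Neither passed in any of them. The cause was not tested.

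Correlations of deviations between wild type and snf2Δ libraries of the same replicate number were 0.156, -0.05 and 0.132. Between libraries of different numbers they were -0.209 to 0.152. Whether replicate numbers pair the libraries was not tested. With the replicate block 12 genes fell, and 8 with the GC and length correction, beside 19% and 18.4% of all features. Upper quartile scaling turned the split over all features from 939 risen and 1003 fallen to 1204 and 808, but none of the 31 genes rose.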
